A study of Mus musculus with 8 samples.

Results

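C1q and other complement genes were followed in myeloid cells of the mouse conjunctiva, the mucosa that lines the eyelids and covers the white of the eye. The 7 genes were C1qa, C1qb and C1qc, which encode the chains of the recognition protein C1q, C4a and C3, which encode complement components, and C3ar1 and C5ar1, which encode the receptors of the anaphylatoxins C3a and C5a. They were taken by name from the 754 genes of a NanoString nCounter panel for mouse myeloid innate immunity (version V2) and were read in all 8 samples. In this assay a pair of probes binds each transcript, and the fluorescent barcodes bound to it are imaged and counted, with no amplification step.

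The cells came from female C57BL/6J mice, given an age of 10 weeks in the labels. The non-stressed (NS) mice stayed in a normal environment. The DS5 mice had 5 days of desiccating stress, in which scopolamine in the drinking water lowered tear secretion and moving air dried the ocular surface. In the gating described for these cells, NK cells, T cells, B cells and Ly6G+ granulocytes were first removed by their surface markers. CD11b+ cells of each condition were sorted into MHCII+ cells and into MHCII-CD64+ cells with high, intermediate and low Ly6C, here called Ly6C-high (the monocytes), Ly6C-inter and Ly6C-low (the macrophages) cells. Each sample was a pool of 20 mice (both eyes), and there was 1 sample for each condition and population. No difference below therefore has a replicate check, no test was possible within a population, and the 95% intervals cover counting error only. Fewer cells of a type in a pool and less RNA per cell cannot be told apart.

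Complement is a cascade of plasma and tissue proteins that tags microbes, dying cells and debris for uptake. C1q binds such targets and starts the classical pathway, in which C4 and then C3 are cleaved, and the small fragments C3a and C5a signal to leukocytes through their receptors. Most complement proteins are made in the liver, whereas C1q is made largely by tissue macrophages and dendritic cells, and its transcripts are a common marker of resident macrophages.

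Total counts over the 754 genes ranged from 2728 in NS Ly6C-high cells to 39677 in NS MHCII+ cells, while the positive control probes stayed between 858.5 and 1176 (geometric mean). The negative control limit, the mean + 2 SD of the 8 probes without a target, lay between 11.2 and 23.0 counts, and 3.18% to 38.6% of the genes were above it. Counts of the MHC class II genes H2-Aa, H2-Ab1, H2-Eb1 and Cd74 summed to 11760 and 8963 in NS and DS5 MHCII+ cells and to between 47 and 97 in the other samples, so the MHCII sort could be seen in the counts. The Ly6C labels had less to rest on: Ly6c1 had 8 counts in NS and 16 in DS5 Ly6C-high cells, and 583 in DS5 Ly6C-inter cells against 8 in NS Ly6C-inter cells. The DS5 Ly6C-inter sample also stood apart in Emp1 (1436 counts against 51 in NS), S100a11 (891 against 62) and S100a10 (696 against 53), and its 5 highest genes took 28.3% of its total. Of 12 macrophage markers measured, 5 to 10 were above the limit in MHCII+, Ly6C-inter and Ly6C-low samples. In NS Ly6C-high cells 0 of the 12 were, and their sum of 77 counts was what the negative control probes alone would give (78 expected).

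The C1q chains were the complement genes with the clearest signal, and they were found in every population but the Ly6C-high cells. C1qa, which encodes the A chain, had 249 counts in MHCII+, 6 in Ly6C-high, 65 in Ly6C-inter and 29 in Ly6C-low cells of NS mice, and 150, 5, 68 and 24 in the same populations after DS5. C1qb, which encodes the B chain, had 404, 1, 117 and 46 counts in NS and 241, 5, 100 and 27 in DS5. C1qc, which encodes the C chain, had 306, 1, 96 and 41 counts in NS and 176, 1, 103 and 35 in DS5. Each chain was above the negative control limit in all 6 samples of MHCII+, Ly6C-inter and Ly6C-low cells and at or below 6 counts in both Ly6C-high samples. The Ly6C-high samples had the lowest totals, and 3.18% (NS) and 6.90% (DS5) of all genes were above the limit in them. How many other genes split the samples in this way was not counted. DS5 Ly6C-low cells, with a total of 4056 counts close to the 3929 of DS5 Ly6C-high cells, had 86 C1q counts against 11, a log2 ratio of scaled counts of 2.92 (95% interval 2.01 to 3.98). The 8 and 11 C1q counts of NS and DS5 Ly6C-high cells were no more than negative control probes alone would give (19.5 and 15.8 expected), so of every ratio of C1q to these cells the lower limit is the part that can be read. The table holds no 0, so that some values of 1 may stand for fewer barcodes than that.

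**Figure D1:**
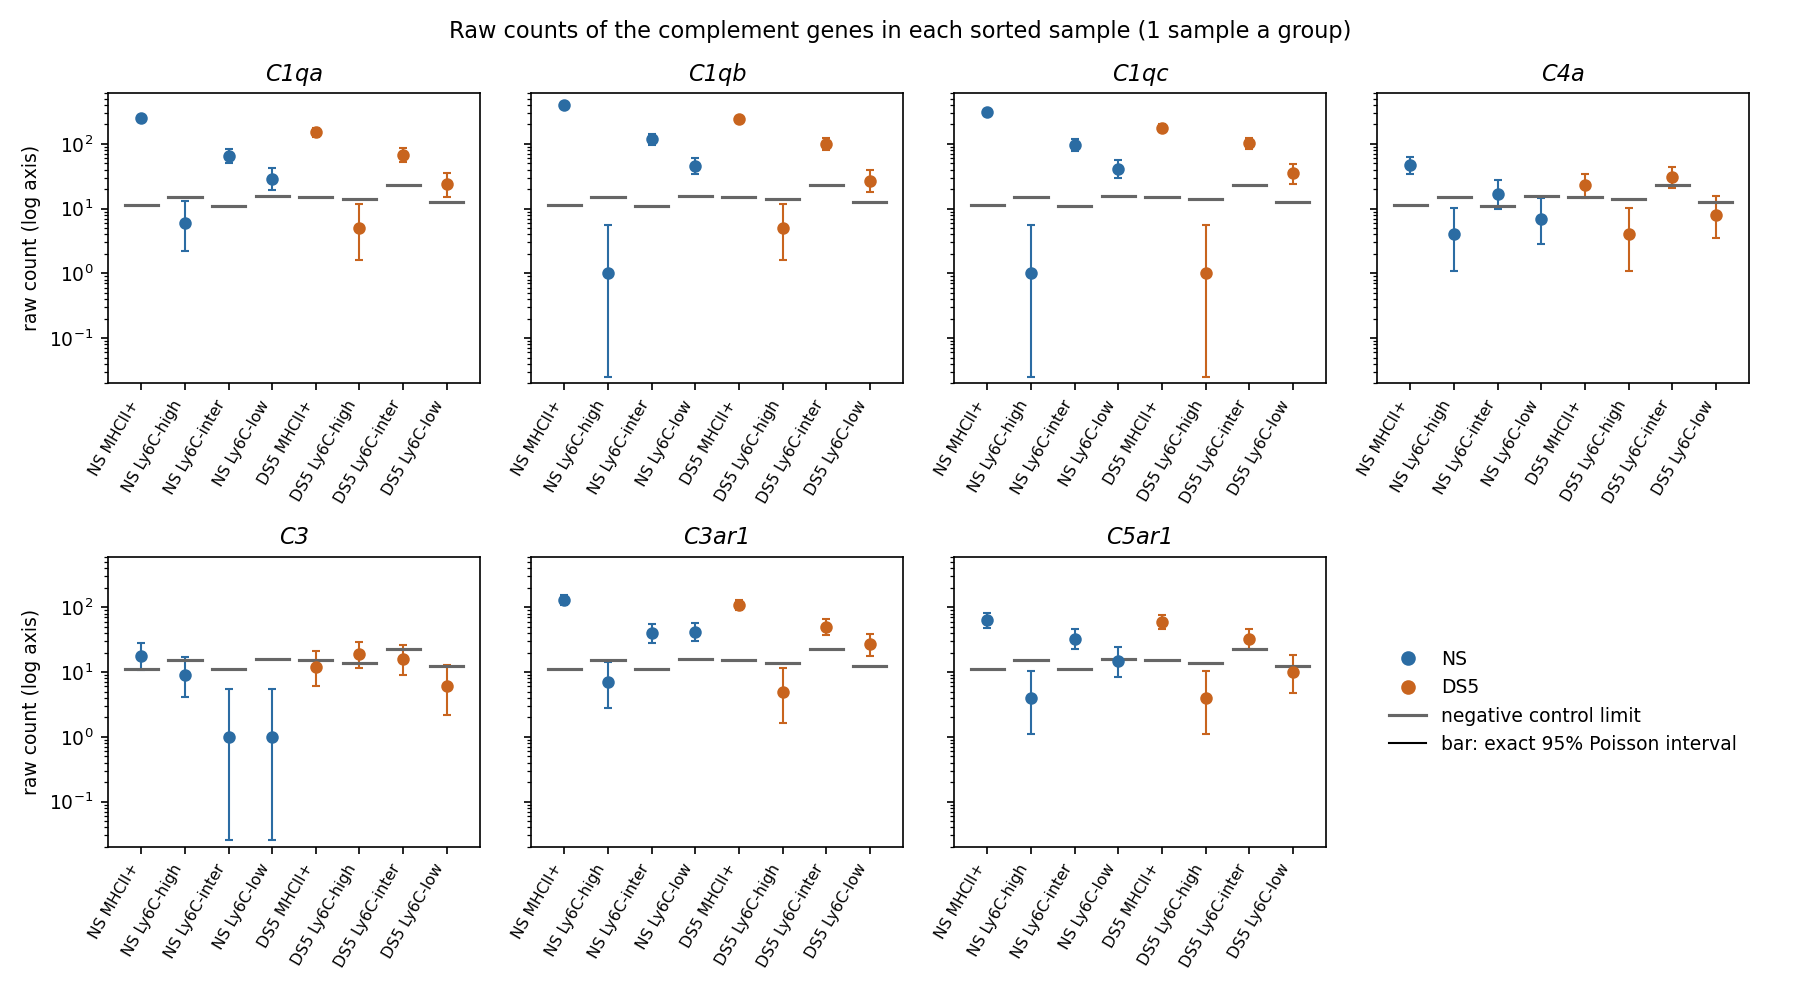
Raw counts (log axis) of the 7 complement genes in each of the 8 samples, with exact 95% Poisson intervals as bars and the negative control limit of each sample as a short grey line. The C1q chains stood above the limit in the 6 samples that were not Ly6C-high, whereas C3 was above it in 2 samples, NS MHCII+ (18 counts) and DS5 Ly6C-high (19 counts).

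C1qb, C1qc and C1qa lie next to each other on chromosome 4 in RefSeq's annotation of GRCm38.p6, and their counts were high and low in the same samples. The 300 bases around the annotated start (250 before and 50 after) are shown for C1qb and C1qc, as 2 neighbours with one pattern, and for C3, whose pattern was different. They were searched on both strands for GAGGAA, the purine-rich core bound by the myeloid factor PU.1, and for TATAAA, the TATA box, and the letters found are in capitals. The windows are C1qb at chr4:136886151-136886450, C1qc at chr4:136892865-136893164 and C3 at chr17:57228087-57228386, all written along the gene's own (minus) strand.
C1qb: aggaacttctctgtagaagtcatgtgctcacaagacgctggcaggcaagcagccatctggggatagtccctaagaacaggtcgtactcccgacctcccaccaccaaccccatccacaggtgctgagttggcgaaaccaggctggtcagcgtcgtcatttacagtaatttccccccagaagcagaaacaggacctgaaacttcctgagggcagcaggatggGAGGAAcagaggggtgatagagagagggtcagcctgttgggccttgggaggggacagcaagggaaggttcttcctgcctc
C1qc: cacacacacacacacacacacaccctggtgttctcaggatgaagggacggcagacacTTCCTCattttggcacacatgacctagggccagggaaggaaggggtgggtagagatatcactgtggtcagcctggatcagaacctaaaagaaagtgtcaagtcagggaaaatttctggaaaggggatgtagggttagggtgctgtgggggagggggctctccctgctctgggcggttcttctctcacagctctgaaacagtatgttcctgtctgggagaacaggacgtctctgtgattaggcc
C3: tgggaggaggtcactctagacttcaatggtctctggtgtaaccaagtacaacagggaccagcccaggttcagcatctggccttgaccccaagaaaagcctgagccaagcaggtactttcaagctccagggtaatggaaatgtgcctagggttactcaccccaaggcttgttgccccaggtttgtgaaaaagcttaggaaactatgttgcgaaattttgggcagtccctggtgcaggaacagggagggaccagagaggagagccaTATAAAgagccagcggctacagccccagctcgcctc
The C1qb window held GAGGAA at position -30 from the start, the C1qc window GAGGAA on the opposite strand (TTCCTC) at position -193, and the C3 window TATAAA at position 14. Such short words are common: of 32851 RefSeq windows of this length, 28.3% held GAGGAA and 13.6% TATAAA. No matches overlapped in these windows, and a match describes letters, not binding. In the windows of the receptors, C3ar1 held TATAAA and C5ar1 held neither, and 5 of the 7 genes had a window in the RefSeq table.

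The shares of the chains did not differ between samples beyond counting error. Within the summed C1q counts of a sample, C1qb took 42.1% (exact 95% interval 39.0% to 45.3%) in NS MHCII+ cells and 42.5% (38.4% to 46.7%) in DS5 MHCII+ cells. Over the 6 samples with at least 30 C1q counts, the share of C1qa was 23.4% to 27.9%, that of C1qb 31.4% to 42.5% and that of C1qc 31.0% to 40.7%. The lowest share of C1qb (interval 21.8% to 42.3%) and the highest of C1qc (30.2% to 51.8%) were both in DS5 Ly6C-low cells, on 86 counts. For all 45 pairs of samples by chain the interval of the odds ratio included 1, which does not show that the shares were equal. Probes differ in efficiency, so the order of the chains within a sample says nothing on the amounts of their RNA.

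**Figure D2:**
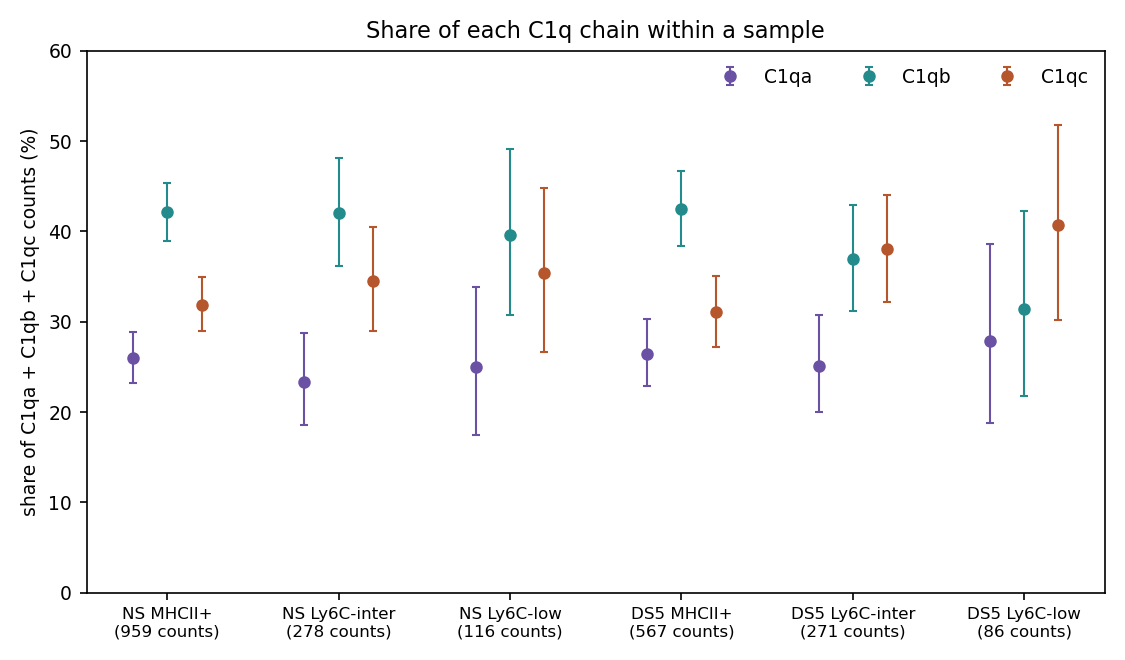
Share (%) of each chain in the summed C1qa, C1qb and C1qc counts of the 6 samples with at least 30 C1q counts, with exact 95% binomial intervals as bars. C1qa stayed between 23.4% and 27.9%, and the intervals of each chain overlapped between all samples.

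To compare populations, each sample was first brought to an equal sum over all panel genes, and a log2 ratio of at least 2 was taken as the threshold. Against Ly6C-high cells, C1qb and C1qc were the members past it upward. The summed C1q counts were 959 in NS MHCII+ against 8 in NS Ly6C-high cells, a log2 ratio of scaled counts of 3.04 (95% interval 2.06 to 4.26), and 567 against 11 in DS5, a log2 ratio of 2.74 (1.89 to 3.75). In NS, 2 of 7 members (C1qb and C1qc) were called higher, where 1.86% of all genes were, and in DS5 the same 2 of 7 were, where 2.25% of all genes were. In DS5 the intervals of 4 of 7 members, the 3 chains and C3ar1, lay above 0, compared with 3.18% of all genes. C1qb was at log2 4.80 (2.31 to 10.1) in NS and 2.64 (1.4 to 4.28) in DS5, and C1qc at 4.4 (1.91 to 9.70) and 4.51 (2.01 to 9.82). Those of C1qc and the NS ratio of C1qb rest on a value of 1 in Ly6C-high cells, and their intervals are wide. With counts raised to the negative control limit, C1qa, C1qb and C1qc were at log2 2.14, 2.84 and 2.44 in NS and 1.73, 2.41 and 1.96 in DS5, so that the call of C1qc in DS5 was lost and that of C1qa in NS was gained.

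Ly6C-inter cells of NS mice devoted the most of their panel counts to C1q. The 3 chains made up 4.67% of the total in NS Ly6C-inter cells, 2.42% in NS MHCII+, 2.0% in NS Ly6C-low and 0.293% in NS Ly6C-high cells. On scaled counts each chain was highest in NS Ly6C-inter cells, beyond the counting interval of the next sample. The log2 ratio of summed C1q in NS MHCII+ over NS Ly6C-inter cells was -0.95 (-1.15 to -0.75), and that in NS Ly6C-inter over NS Ly6C-low cells was 1.22 (0.91 to 1.55). No member passed the threshold in NS MHCII+ over Ly6C-inter cells (0 of 7, against 26.3% of all genes in either direction), and the intervals of 6 of 7, all but C3, lay below 0, compared with 22.1% of all genes. The median of the members was -1.04. That of all genes, -1.16, is what a gene with 1 count in both samples receives, since scaled values under 1 were set to 1. It is therefore not a measured shift of the panel. The 4 MHC class II genes held 11760 of the 39677 counts of the NS MHCII+ sample. Against NS Ly6C-low cells 0 of 7 members passed (23.6% of all genes) and summed C1q was at log2 0.27 (-0.01 to 0.56).

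After DS5 the same populations were closer together. The C1q share of the panel total was 1.87% in MHCII+, 1.91% in Ly6C-inter and 2.12% in Ly6C-low cells and 0.280% in Ly6C-high cells. Summed C1q in DS5 MHCII+ cells was at log2 -0.03 (-0.24 to 0.18) over Ly6C-inter and -0.18 (-0.51 to 0.16) over Ly6C-low cells. Against DS5 Ly6C-inter cells 0 of 7 members passed the threshold (21.1% of all genes), and the intervals of 2 of 7 (C3 and C4a) lay below 0, where 20.4% of all genes did. Against DS5 Ly6C-low cells 0 of 7 passed (37.5% of all genes), and the intervals of 4 of 7 (C1qc, C3, C3ar1 and C4a) lay below 0, where 27.2% of all genes did.

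**Figure D3:**
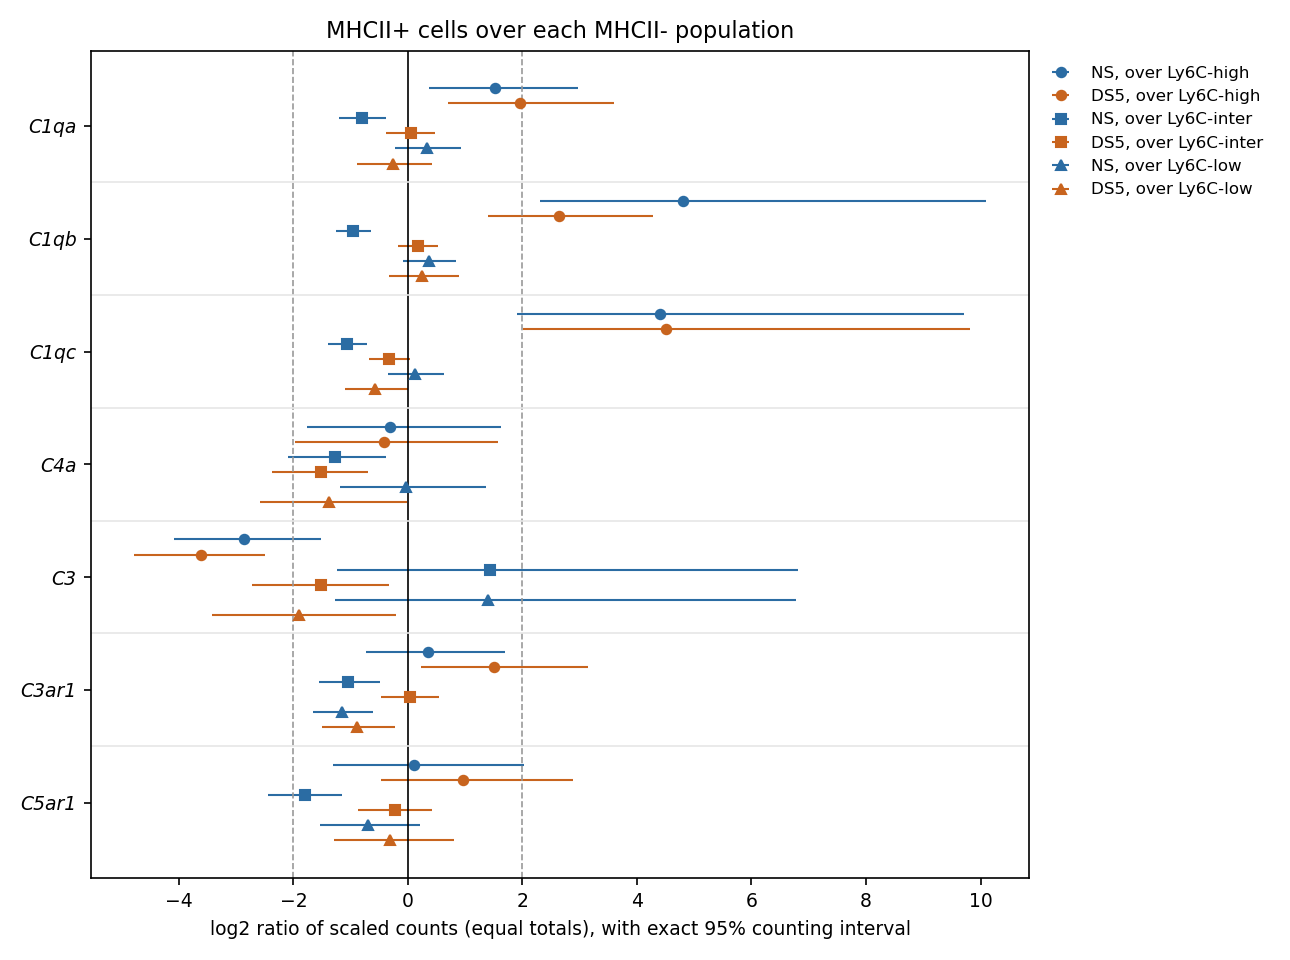
Log2 ratio of scaled counts of MHCII+ cells over each MHCII- population, for the 7 genes in NS (blue) and DS5 (orange), with exact 95% counting intervals as bars and the threshold of 2 as dashed lines. C1qb and C1qc passed it upward and C3 downward against Ly6C-high cells, and 0 of 7 genes passed it against Ly6C-inter or Ly6C-low cells.

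How MHCII+ cells compare with Ly6C-inter and Ly6C-low cells depended on what the counts were scaled to. For summed C1q in NS MHCII+ over NS Ly6C-inter cells, the log2 ratio was -0.31 when the 5 highest genes of each sample were left out of the total, -0.15 with reference genes and 1.79 without scaling. A ratio within each sample needs no scaling, and 12 macrophage markers (among them Adgre1, Csf1r, Mrc1, Cd163 and Apoe) served as its denominator. Cd163 and Apoe were among the 5 genes nearest to C1q in profile, and Apoe gave 469 of the 1289 marker counts in NS MHCII+ cells. Markers that share the profile of C1q draw such a ratio toward no difference between samples. There were 74.4 C1q counts per 100 marker counts in NS MHCII+ cells (68.4 to 80.9), 70.6 (60.3 to 82.5) in NS Ly6C-inter cells and 46.6 (37.0 to 58.3) in NS Ly6C-low cells. In DS5 there were 60.8 (54.7 to 67.5), 59.2 (50.7 to 68.9) and 42.0 (32.2 to 54.2). Relative to these markers, C1q differed between NS MHCII+ and NS Ly6C-inter cells by log2 0.08 (-0.18 to 0.33), an interval with 0 inside, and it was lower in Ly6C-low than in MHCII+ cells in both conditions, by log2 0.68 (0.33 to 1.03) in NS and 0.53 (0.13 to 0.95) in DS5. When any 1 of the 12 markers was left out, MHCII+ over Ly6C-inter cells was between log2 0.03 and 0.13 in NS and between -0.09 and 0.14 in DS5. Leaving out Cd163 and Apoe together was not tried. The difference from Ly6C-low cells depended on the markers: when any 1 of the 12 was left out it was between log2 0.34 (without Adgre1) and 0.98 (without Apoe) in NS and between 0.43 and 0.66 in DS5. With the mean of the negative control probes subtracted, the values for MHCII+, Ly6C-inter and Ly6C-low cells were 76.4, 75.6 and 51.9 in NS and 63.3, 64.5 and 45.6 in DS5.

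**Figure D4:**
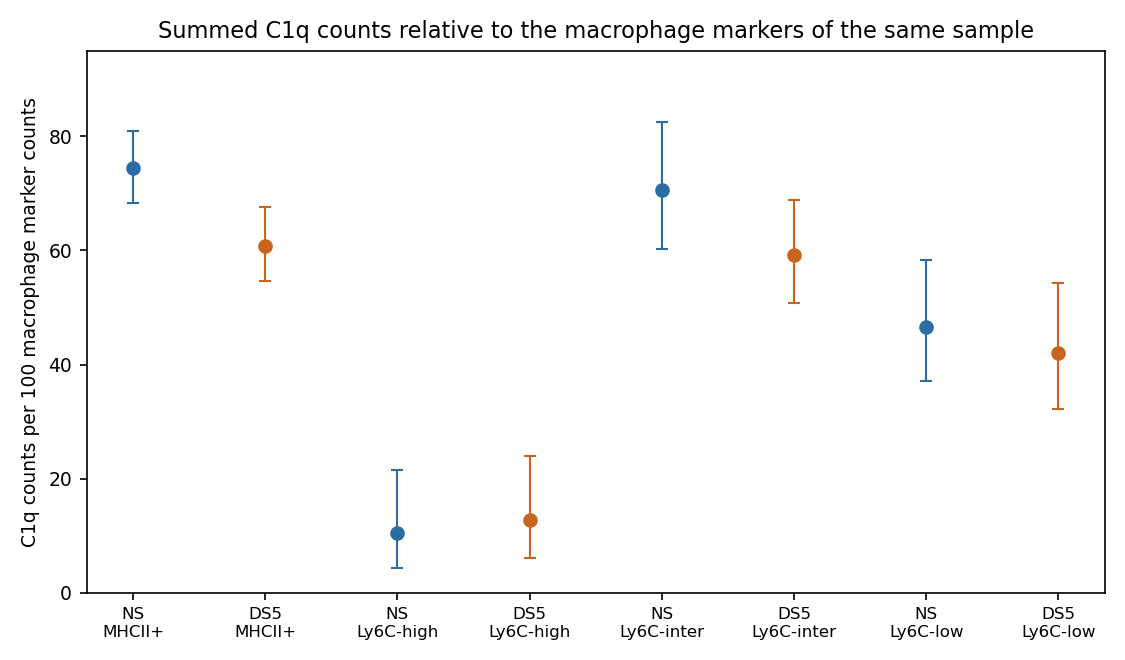
Summed C1qa, C1qb and C1qc counts per 100 counts of 12 macrophage markers of the same sample, NS in blue and DS5 in orange, with exact 95% counting intervals as bars. MHCII+ and Ly6C-inter cells lay together within each condition, and Ly6C-low cells lower; the points of Ly6C-high cells, with marker sums of 77 and 86 counts where negative control probes would give 78 and 63, are background over background and are not read.

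Desiccating stress went with a smaller C1q signal in MHCII+ cells. At the threshold of log2 1.5 for DS5 over NS, 0 of 7 members passed in MHCII+ cells, where 2.65% of all genes did. The 3 chains nevertheless had intervals below 0, as 2.39% of all genes had: C1qa at log2 -0.34 (-0.65 to -0.05), C1qb at -0.36 (-0.59 to -0.12) and C1qc at -0.41 (-0.69 to -0.14). Summed C1q was at log2 -0.37 (-0.52 to -0.22). The median of all genes was 0.00, which is what a gene with 1 count in both samples receives, since scaled values under 1 were set to 1. It is therefore no measure of how the panel moved. Relative to the macrophage markers the log2 ratio was -0.29 (-0.49 to -0.10), between -0.32 and -0.26 when any 1 of the 12 markers was left out, and the markers themselves were at log2 -0.08 (-0.20 to 0.04). The direction was the same in every alternative tried, from -0.76 without scaling to -0.29 per macrophage marker. A difference of this size between 2 pools has no measured spread to be set against.

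In Ly6C-inter cells the change in C1q depended on the scaling. The raw counts of the chains hardly moved, from 278 in NS to 271 in DS5 in sum, while the total of the sample went from 5948 to 14201. On scaled counts the log2 ratio of summed C1q was -1.29 (-1.54 to -1.05), and without scaling it was -0.04 (-0.28 to 0.21). The intervals of 5 of 7 members (C1qa, C1qb, C1qc, C3ar1 and C5ar1) lay below 0 on scaled counts, compared with 11.8% of all genes, and their log2 ratios were between -1.48 for C1qb and -0.93 for C3ar1. The macrophage markers moved with them, at log2 -1.04 (-1.24 to -0.84), so that C1q per marker count was at log2 -0.25 (-0.57 to 0.06), an interval with 0 inside. This is the sample in which Emp1, S100a11, S100a10 and Ly6c1 led the total, and without the 5 highest genes of each sample the log2 ratio was -1.0. Ly6G+ granulocytes had been gated out before the sort. Of 9 neutrophil genes measured, S100a9 was the one above the limit in both Ly6C-inter samples, with 16 counts before stress and 55 after it, and its part in the result was not tested.

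In Ly6C-low cells summed C1q was 116 counts in NS and 86 in DS5, a log2 ratio of scaled counts of 0.08 (-0.34 to 0.50), with an interval of that width on both sides of 0. Without scaling it was -0.43 (-0.85 to -0.02), and over the alternatives it ranged from -0.62 to 0.02, so its direction depended on the scaling. In Ly6C-high cells it was 8 and 11 counts, at log2 -0.07 (-1.52 to 1.45), and no change could be seen at this depth. C1qb was the 1 of 7 members past the threshold in Ly6C-high cells (6.37% of all genes were called higher there), on 5 counts against 1, both below the negative control limit, and its log2 ratio of 1.80 had an interval of -1.36 to 7.36.

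Taking the 4 populations as 4 pairs of DS5 and NS samples, summed C1q was lower in DS5 in 3 of 4 pairs, with a mean log2 ratio of -0.41 ± 0.62 (SD, n = 4 pairs), and the exact two-sided sign-flip permutation test gave p = 0.375 (adjusted p = 0.5 over 8 comparisons, summed C1q and the 7 members). With 4 pairs this exact test cannot go below p = 0.125, so it cannot pass 0.05. The smallest p among the 7 members was 0.25 by the same exact test, for C1qa, C1qc and C3, with mean log2 ratios of -0.52, -0.45 and 1.55. The pairs are different populations, in which the change need not be the same, and they are not replicates of the stress. The SD and the p-values therefore describe spread between populations, not between mice. The Ly6C-high pair, 8 and 11 C1q counts, was at background.

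**Figure D5:**
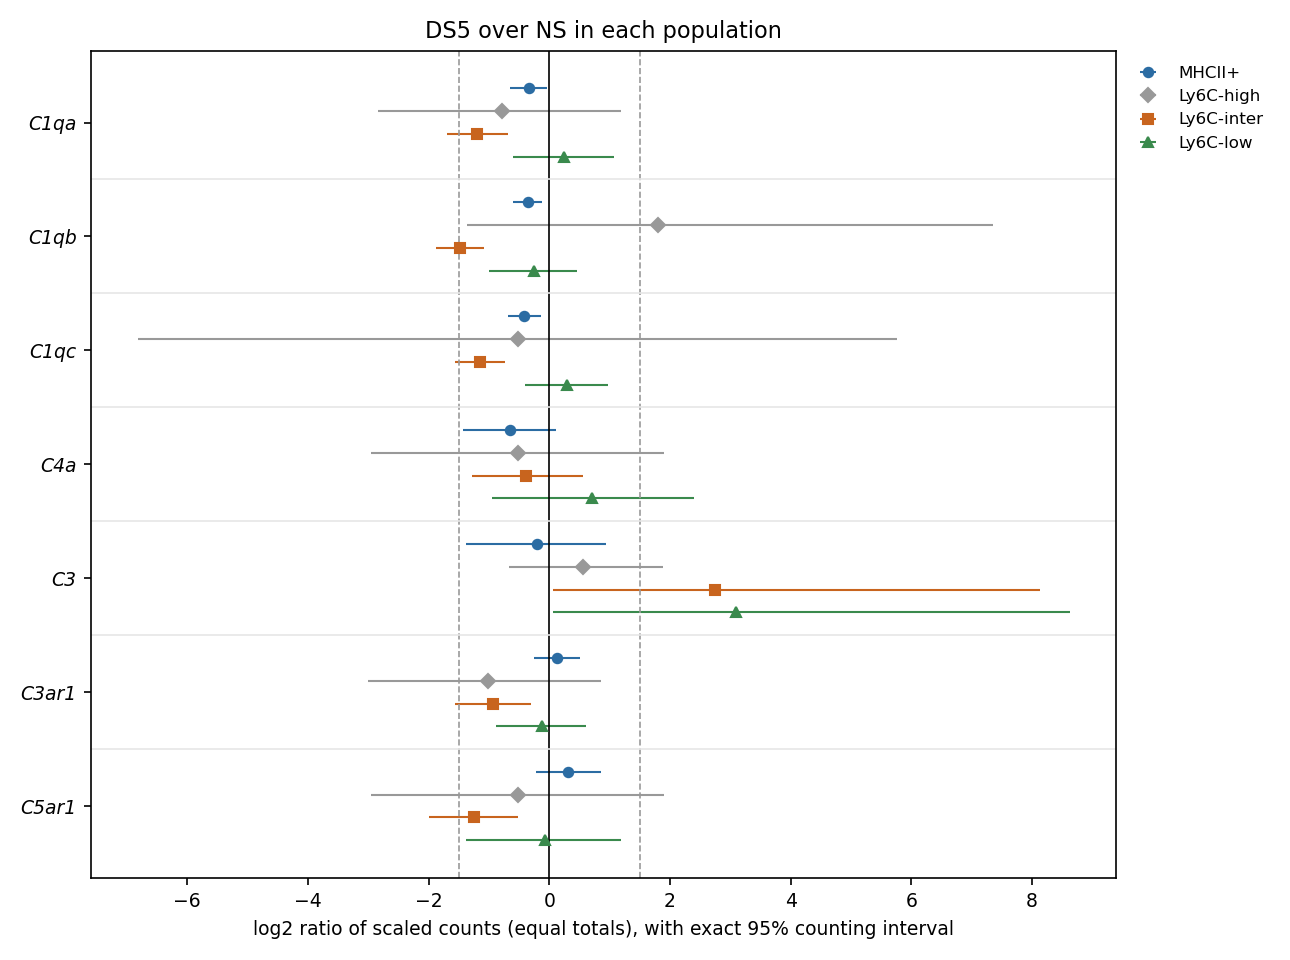
Log2 ratio of scaled counts, DS5 over NS, of the 7 genes in each population, with exact 95% counting intervals as bars and the threshold of 1.5 as dashed lines. The C1q chains lay below 0 in MHCII+ and Ly6C-inter cells, and the ratios past the threshold, C1qb in Ly6C-high and C3 in Ly6C-inter and Ly6C-low cells, had a value of 1 in NS.

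C4a encodes a form of complement component C4. RefSeq lists it as a transcribed pseudogene on chromosome 17, close to its near-identical copy C4b, which was not among the genes measured, so it is uncertain which copy the counts come from. C4a had 47 counts in MHCII+, 4 in Ly6C-high, 17 in Ly6C-inter and 7 in Ly6C-low cells of NS mice, and 23, 4, 31 and 8 in DS5. It was above the negative control limit in both MHCII+ and both Ly6C-inter samples and in no Ly6C-high or Ly6C-low sample. In DS5 it was lower in MHCII+ than in Ly6C-inter cells, at log2 -1.53 (-2.37 to -0.70) on scaled counts. The same held per C1q count, 4.06 against 11.4 C4a counts per 100 (log2 -1.49, -2.37 to -0.64). In NS these were 4.90 and 6.12 per 100 (log2 -0.32, -1.17 to 0.60). None of the DS5 over NS ratios of C4a had an interval without 0, and no neighbours in the order of its 8 scaled values differed beyond counting error.

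C3 encodes the central component, on which all routes of complement activation meet. It was the member with the weakest signal and the least like the others. C3 had 18 counts in MHCII+, 9 in Ly6C-high, 1 in Ly6C-inter and 1 in Ly6C-low cells of NS mice, and 12, 19, 16 and 6 in DS5. In NS MHCII+ and DS5 Ly6C-high cells it was above the negative control limit, and in the other 6 samples it was not. On scaled counts it was lower in MHCII+ than in Ly6C-high cells, at log2 -2.86 (-4.09 to -1.53) in NS and -3.61 (-4.79 to -2.49) in DS5. C3 was thus the 1 of 7 members called lower in each condition, where 52.1% of all genes in NS and 39.5% in DS5 were called lower. In NS these calls include genes with 1 count in both samples (Hc, log2 -2.29), by scaling and the lowest value allowed. The interval of C3 lay below 0 in both conditions, as did those of 28.9% of all genes in each. Without scaling the NS ratio turned to log2 1.0, whereas the DS5 ratio was below 0 in all 9 alternatives, from -4.89 to -0.37. The 9 counts in NS Ly6C-high and the 12 in DS5 MHCII+ cells were below their limits, and with counts raised to the limit the ratios were -1.65 and -2.0 (just short of the threshold), so that both calls were lost.

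C3 was also the 1 of 7 members past the threshold upward for DS5 over NS in Ly6C-inter cells, where 7.29% of all genes were called higher, and in Ly6C-low cells, where 24.7% were. The log2 ratios were 2.74 (0.06 to 8.13) on 16 counts against 1 and 3.10 (0.06 to 8.62) on 6 against 1. All 4 of those counts were below the negative control limit, and with counts raised to that limit the ratio in Ly6C-inter cells was -0.13. A difference in C3 between DS5 and NS in these populations was not detectable at this depth.

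The anaphylatoxin receptors, like C1q, were below the negative control limit in Ly6C-high cells. In NS their counts per C1q count differed beyond counting error between some of the other populations. In DS5 all of these intervals included 0. C3ar1, the receptor of C3a, had 130 counts in MHCII+, 7 in Ly6C-high, 40 in Ly6C-inter and 42 in Ly6C-low cells of NS mice, and 109, 5, 50 and 27 in DS5. It was above the negative control limit in the same 6 samples as C1q. C5ar1, the receptor of C5a that draws neutrophils and monocytes to sites of activation, had 63, 4, 33 and 15 counts in NS and 60, 4, 33 and 10 in DS5, and was above the limit in the MHCII+ and Ly6C-inter samples. Both receptors were below 8 counts in Ly6C-high cells, where neither could be measured.

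Among the NS samples with at least 30 C1q counts, Ly6C-low cells had the most C3ar1 for their C1q. C3ar1 counts per 100 C1q counts were 13.6 (11.2 to 16.3) in MHCII+, 14.4 (10.1 to 20.1) in Ly6C-inter and 36.2 (24.8 to 51.9) in Ly6C-low cells of NS mice, a 2.51-fold ratio of Ly6C-low over Ly6C-inter cells (log2 1.33, 0.59 to 2.07). In DS5 they were 19.2, 18.5 and 31.4, and the interval of the last over the second included 0 (log2 0.77, -0.06 to 1.57). On scaled counts C3ar1 was lower in MHCII+ than in Ly6C-low cells in both conditions, at log2 -1.14 (-1.66 to -0.61) in NS and -0.89 (-1.51 to -0.22) in DS5. This direction turned in 3 of 9 alternatives in NS and 4 of 9 in DS5, among them no scaling (log2 1.63 and 2.01) and, in DS5, reference genes (0.38). Per macrophage marker the difference was -0.74 (-1.30 to -0.17) in NS and -0.17 (-0.84 to 0.53) in DS5.

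C5ar1 in NS was lower in MHCII+ than in Ly6C-inter cells after scaling to equal totals, at log2 -1.80 (-2.43 to -1.15), while the ratio was 0.93 without scaling and 1.08 with positive controls. Per 100 C1q counts C5ar1 was at 6.57 in NS MHCII+ and 11.9 in NS Ly6C-inter cells (log2 -0.85, -1.52 to -0.17), with 12.9 in NS Ly6C-low cells on a C5ar1 count below the limit, and at 10.6 and 12.2 in DS5 (log2 -0.20, -0.88 to 0.49).

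For the receptors in MHCII+ cells under desiccating stress, the direction depended on the scaling. C3ar1 was at log2 0.13 (-0.25 to 0.51) and C5ar1 at log2 0.32 (-0.22 to 0.85) for DS5 over NS on scaled counts, both with 0 inside the interval, and over the alternatives C3ar1 ranged from -0.25 to 0.15 and C5ar1 from -0.07 to 0.32. Set against the C1q counts of the same sample, which needs no scaling, C3ar1 was 1.42-fold higher in DS5 (log2 0.50, 0.09 to 0.91) and C5ar1 1.61-fold higher (log2 0.69, 0.13 to 1.24). The raw counts of both receptors were lower in DS5, and the C1q counts they are divided by went from 959 to 567. Per macrophage marker, C3ar1 was at log2 0.21 (-0.19 to 0.61) and C5ar1 at 0.40 (-0.15 to 0.94), both with 0 inside the interval. Taken as a sum, the receptor counts per 100 C1q counts went from 20.1 (17.2 to 23.5) to 29.8 (25.0 to 35.5), a 1.48-fold ratio (log2 0.57, 0.22 to 0.91). In Ly6C-inter cells the same quantity was 26.3 before and 30.6 after stress (log2 0.22, -0.31 to 0.76), and in Ly6C-low cells it was 49.1 and 43.0 (log2 -0.19, -0.96 to 0.57). Whether the populations differed in this change was not tested.

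Of 49 complement genes listed for this comparison, 13 were on the panel, the 7 members and 6 others. Hc, which encodes C5, had at most 6 counts in any sample, and Fcnb, which encodes a ficolin of the lectin pathway, at most 4, all below the negative control limit. The complement receptor subunits were better measured. Itgam, which encodes CD11b, the alpha chain of complement receptor 3 and the marker used in the sort, had 91, 7, 21 and 31 counts in MHCII+, Ly6C-high, Ly6C-inter and Ly6C-low cells of NS mice and 75, 8, 161 and 13 in DS5. On scaled counts the DS5 over NS ratio of Itgam in Ly6C-inter cells, log2 1.68, was opposite in sign to those of the C1q chains. Without scaling Itgam was at log2 2.94, C1qa at 0.07, C1qc at 0.10 and C1qb at -0.23. Itgb2, which encodes the shared beta chain CD18, had 56, 1, 15 and 15 counts in NS and 48, 8, 10 and 9 in DS5. Itgax, which encodes CD11c, had 12 counts in NS MHCII+ cells and at most 8 in the other samples.

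Calr, which encodes calreticulin, a chaperone that can also bind the collagen-like tail of C1q at the cell surface, had 263, 6, 37 and 22 counts in NS and 161, 20, 155 and 17 in DS5. At the thresholds, 0 to 2 of these 6 genes were called in either direction in a population comparison, where 21.1% to 54% of all genes were. For DS5 over NS, Itgam was called higher and Hc and Itgb2 lower in Ly6C-inter cells, Itgb2 higher and Fcnb lower in Ly6C-high cells, and Hc higher in Ly6C-low cells, that is 3, 2 and 1 of 6 where 21.2%, 20.7% and 27.5% of all genes were called in either direction. Of these calls, those of Itgam (161 counts in DS5) and Itgb2 (15 counts in NS) in Ly6C-inter cells had a count over the limit. In MHCII+ cells 0 of 6 were called (2.65% of all genes).

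The panel genes with profiles nearest to C1q were sought by the root mean square difference of log2 scaled values, each gene centred on its own mean over the 8 samples, among 304 genes. Cd163, the haemoglobin scavenger receptor of macrophages, was nearest, at 0.50, where the median of all genes was 1.81. It had 112, 1, 35 and 22 counts in NS and 78, 3, 47 and 24 in DS5. Next came the monocyte chemokines Ccl12 (0.66) and Ccl2 (0.73), then Rgl1 (0.75) and Apoe (0.78), which encodes a lipid transport protein. Nearest to C3ar1 were Fgfr1 (0.31), Cxcl2 (0.33) and Tap1 (0.35), nearest to C5ar1 were Tap1 (0.26), Pf4 (0.36) and Atf3 (0.36), and the medians there were 1.09 and 1.04. No gene came as close to C3, for which Mob3c (0.90), Mcm5 (1.03) and Hmgb1 (1.13) were nearest and the median was 1.88. Rgl1, Fgfr1, Tap1, Mob3c, Mcm5 and Hmgb1 were above the negative control limit in 0 of the 6 MHCII- samples, so there their likeness is one of values near background.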

How the data were processed

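CD11b+ conjunctival cells were sorted into 4 populations in NS and DS5 mice, and 8 samples were measured, 1 per group, each from 20 mice. Total RNA was hybridized to the nCounter panel, and the authors deposited raw counts (integers, lowest value 1, not normalized) of 754 genes, 8 negative control and 6 positive control probes. They used nSolver, with normalization settings not given in the sources used here.

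Here each sample was scaled to the mean total over the 754 genes (13334 counts), because 2 of 20 reference genes measured, Ppia and Rpl19, were above the negative control limit in all samples. Values under 1 after scaling were set to 1. Log2 ratios used thresholds of 2 between populations and 1.5 for DS5 over NS. Their 95% intervals are exact (Clopper-Pearson), as are those of shares, and they cover counting error only. With 1 sample a group no test within a population was possible; across the 4 populations DS5 and NS were compared by an exact two-sided sign-flip permutation test of the paired log2 ratios, with Benjamini-Hochberg adjustment over 8 comparisons. Equal totals hold only if the summed RNA of the panel is comparable, and MHC class II genes fill much of the MHCII+ total.

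The members and gene lists were chosen with earlier results of these data known. Named were the 7 members, every complement gene measured, and the genes with the nearest profiles (5 for C1q, 3 for C3, C3ar1 and C5ar1) among genes above the limit in at least 1 sample. The ratios per macrophage marker and per C1q count, the paired test, and leaving out single markers or the Ly6C-high or DS5 Ly6C-inter samples, were chosen after seeing the data. Alternatives were scaling to reference genes, positive controls, Ppia and Rpl19, totals without the 5 highest genes or none, other floors and thresholds, and use of the negative control level. Of 754 gene names, 744 matched a RefSeq symbol (GRCm38.p6), from which promoter windows came. The code, tested on simulated data, ran in Python 3.11.15 with scipy 1.17.1, pandas 2.3.3 and numpy 2.4.6, and figures were drawn with matplotlib 3.10.9. A further promoter motif that had been planned is not reported here.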

Additional observations from a re-analysis of the deposited data

How the results depend on the processing

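The number of calls over 7 members and 6 population comparisons was 6 (4 higher, 2 lower). It was 11 with reference genes (10 higher, 1 lower), 24 without scaling (24 higher, 0 lower), 25 with positive controls (25 higher, 0 lower), 11 with Ppia and Rpl19 (5 higher, 6 lower), 11 with totals without the 5 highest genes (9 higher, 2 lower), 13 with the negative control mean subtracted (10 higher, 3 lower), 4 with counts raised to the limit (4 higher, 0 lower; both C3 calls and that of C1qc in DS5 lost, that of C1qa in NS gained), 20 at a threshold of 1 (9 higher, 11 lower), and 0 without the Ly6C-high samples. The background moved too: of all genes and comparisons 2.21% were called higher and 31.8% lower, against 6.76% and 13.4% with reference genes, 33.6% and 4.62% without scaling, 36.1% and 2.12% with positive controls, 1.72% and 41.8% with Ppia and Rpl19, 4.53% and 19.8% without the 5 highest genes, 4.86% and 34.7% with the mean subtracted, and 1.97% and 22.1% with counts raised to the limit. For DS5 over NS the number was 3, all higher (9.88% of all genes). It was 0 with counts raised to the negative control limit, where 0.564% of all genes were called higher and 0.398% lower. It was 0 when the higher count had to be above that limit, and 8 at a threshold of 1 (3 higher, 5 lower). For both of these settings, and for a threshold of 1 between populations, the share of all genes is not given here. The log2 ratio of C3 in NS MHCII+ over NS Ly6C-high cells turned to 1.0 without scaling and to 1.20 with positive controls. That of C1qb for DS5 over NS in Ly6C-high cells turned to -0.067 with counts raised to the limit and to -0.72 with the negative control mean subtracted, and that of C3 in Ly6C-inter cells turned to -0.13 with counts raised to the limit. The cause of these changes was not tested. Of 630 ratios of members under alternatives, 453 moved by less than the counting interval, 172 moved more with no called ratio turning, and the 5 above turned. The direction of summed C1q for DS5 over NS in MHCII+ cells, and in MHCII+ over Ly6C-high cells, held in all 6 alternatives to equal totals. These were other scalings, no scaling and the ratio per macrophage marker. Over the same alternatives summed C1q in NS MHCII+ over NS Ly6C-inter cells ranged from -0.88 to 1.93, against -0.95 with equal totals. The groups share no replicate number beyond 1, so no replicate block could be fitted; with the 4 populations as pairs, summed C1q for DS5 over NS gave an exact permutation p = 0.375 at a mean log2 ratio of -0.41, and the smallest p possible is 0.125. By the gating described, the populations of a condition were sorted from the cells of shared mice, so these pairs are not independent. Depth limits all values in Ly6C-high cells and C3 throughout.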
